A study of Mus musculus with 50 samples.

Results

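Chemokines and chemokine receptors were followed in the gastrocnemius, a calf muscle, of male mice at 6 ages. Members were taken by gene symbol alone: every gene of the deposited tables whose symbol names a CC, CXC, CX3C or XC ligand, a receptor for these ligands, or an atypical receptor (Ackr). Of 23880 genes in all, 60 were members, 38 ligands and 22 receptors. A gene counted as measured when it reached 1 CPM (counts per 1000000 counts of the library) or more in 8 or more mice. That held for 27 members, 18 ligands and 9 receptors, among 12586 measured genes.

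The animals were 50 wild type C57BL/6JRj mice, an inbred strain, with groups of 8 mice at 8, 18, 22 and 24 months and of 9 mice at 26 and 28 months. Each library came from 1 mouse, all mice were male and caged singly, and animals found sick or with tumours were not used. All ended on the purified diet AIN-93M. The 8 and 18 months-old mice had it for a last stretch of at least 2 months. The mice of 22 to 28 months had it from 18 months of age or soon after. Diet history and age therefore cannot be told apart between these sets. Within the older set time on the diet rose with age, so there too they cannot be told apart. Total counts per mouse lay between 13607229 and 21267375. Muscle fibre markers were abundant in every library, and the lowest sum, 88780 CPM, was that of replicate 2 of 28 months.

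Chemokines are small secreted proteins that attract leukocytes along a gradient by binding receptors that signal through G proteins of the Gi class. CC ligands mostly act on monocytes, macrophages, eosinophils and lymphocytes, and CXC ligands on neutrophils and lymphocytes. Atypical receptors bind chemokines without G protein signalling and remove them from the tissue or carry them across endothelium. In muscle, chemokines are best known from injury, after which they draw monocytes and neutrophils into the damaged fibres. The RNA of whole muscle mixes fibres with all other cells, so fewer cells of a type and less RNA per cell cannot be told apart.

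At 28 months 10 of the 27 measured members differed from 8 months at an adjusted p under 0.01 in edgeR's quasi-likelihood test, with 6 higher and 4 lower. The ligands Cxcl13, Ccl8, Ccl6 and Ccl9 and the receptors Ccr1 and Cxcr2 were higher, and the ligands Ccl24, Ccl25 and Ccl11 and the atypical receptor Ackr3 were lower. Their share, 37% of the members, was near the 39.6% called among all measured genes, of which 21% were higher and 18.7% lower. The median log2 fold change was 0.09 over the 27 members and 0.01 over all measured genes. Among the members, Cxcl13 and Ccl8 had the largest log2 fold changes, 5.48 and 3.10, and the other 25 lay between -1.07 and 1.73. Without replicate 2 of the 28 months-old mice, whose levels of several members stood apart, 27 members were still measured and 7 were called: Cxcl13, Ccl8, Ccr1, Ccl6, Ccl24, Ackr3 and Ccl11. Leaving out replicate 1 of 28 months also left 7.

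**Figure D1:**
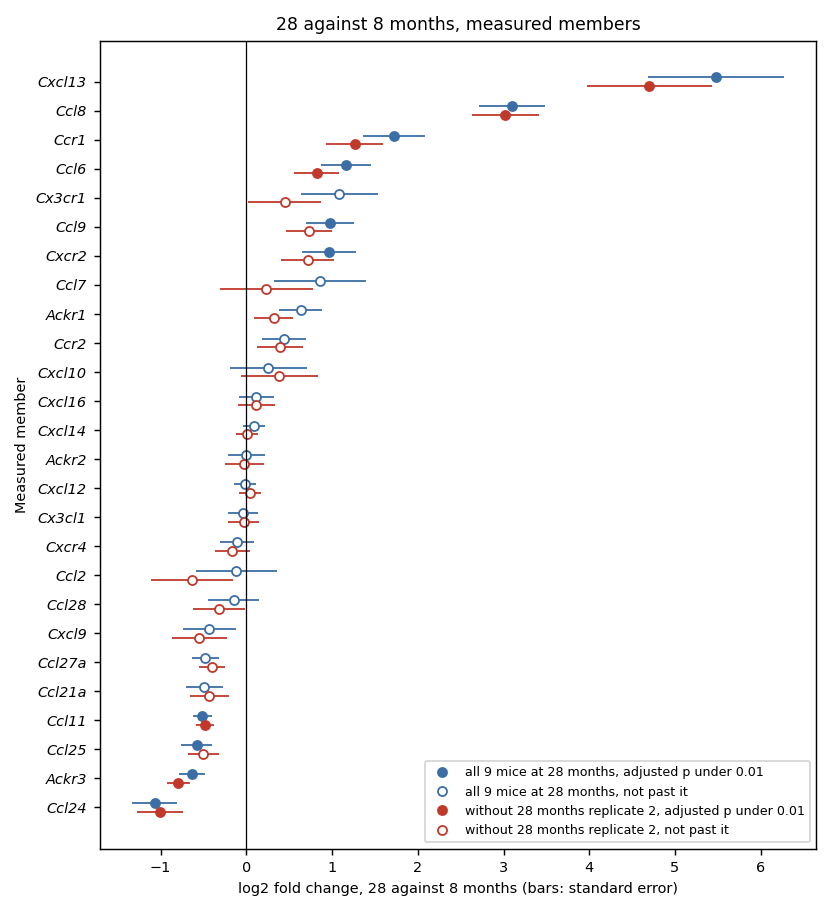
The plot gives the log2 fold change between 28 and 8 months (horizontal axis, bars are standard errors) for 26 measured members (vertical axis), with all mice in blue and without replicate 2 of 28 months in red. Filled points had an adjusted p under 0.01, 10 with all mice and 7 without that mouse, and Cxcl13 and Ccl8 lie farthest to the right either way.

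The members that rose are taken first, ligands before receptors. Cxcl13, which attracts B cells through the receptor Cxcr5 and organizes lymphoid follicles, was the member with the largest change. At 8 months its level ran from 0.441 to 1.29 CPM over 8 mice, with a median of 0.664 CPM. The median was 1.24 CPM at 18 months (0.308 to 5.58), 1.29 CPM at 22 months (0.949 to 3.96) and 1.88 CPM at 24 months (0.83 to 8.69). It was 9.24 CPM at 26 months (2.33 to 78.4) and 19.4 CPM at 28 months (1.16 to 150.1). As a ratio the median moved most between 24 and 26 months, and the spread was wide: all 9 mice of 26 months and 8 of 9 mice of 28 months stood above the highest 8 months-old mouse, while replicate 3 of 28 months, at 1.16 CPM, lay within the range of 8 months. The mean was 35.1 ± 48.7 CPM at 28 months (SD, n = 9) against 0.776 ± 0.32 CPM at 8 months (SD, n = 8), a fitted difference of 44.5-fold (log2 5.48, standard error 0.79, adjusted p = 5.64e-07). Replicate 2 was highest at 150.1 CPM and replicate 5 next at 76.0 CPM. Without replicate 2 the log2 fold change of Cxcl13 was 4.70 (adjusted p = 2.63e-06) and the mean at 28 months was 20.8 CPM. Against 8 months the log2 fold change was 4.97 at 26 months (adjusted p = 1.4e-05). The step from 24 to 26 months, 2.96, did not pass at an adjusted p of 0.0569. Its receptor Cxcr5 was not measured, with a highest value of 0.312 CPM and a count in 25 of 50 mice.

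Ccl8, a CC ligand, rose earlier and more evenly. At 8 months it ran from 0.332 to 3.14 CPM with a median of 0.982 CPM. The median was 1.65 CPM at 18 months (0.655 to 6.55), 4.19 CPM at 22 months (2.20 to 8.29) and 6.57 CPM at 24 months (2.93 to 13.7). It was 11.8 CPM at 26 months (5.64 to 26.4) and 8.70 CPM at 28 months (7.46 to 19.2). The mice of 8 and 28 months did not overlap, nor did those of 8 and 26 months. The mean was 1.31 ± 0.949 CPM at 8 months (SD, n = 8) and 11.1 ± 4.3 CPM at 28 months (SD, n = 9), an 8.56-fold difference (log2 3.10, standard error 0.39, adjusted p = 4.43e-08). Ccl8 was the only member called at 24 months against 8 months (log2 2.45, adjusted p = 0.000184), and at 22 months its log2 fold change was 1.84 (adjusted p = 0.0175). Between 26 and 28 months it differed by -0.26 on the log2 scale (adjusted p = 0.72). Replicate 2 of 28 months, at 15.3 CPM, was within the range of the other mice, and without it the log2 fold change from 8 months was 3.02.

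**Figure D2:**
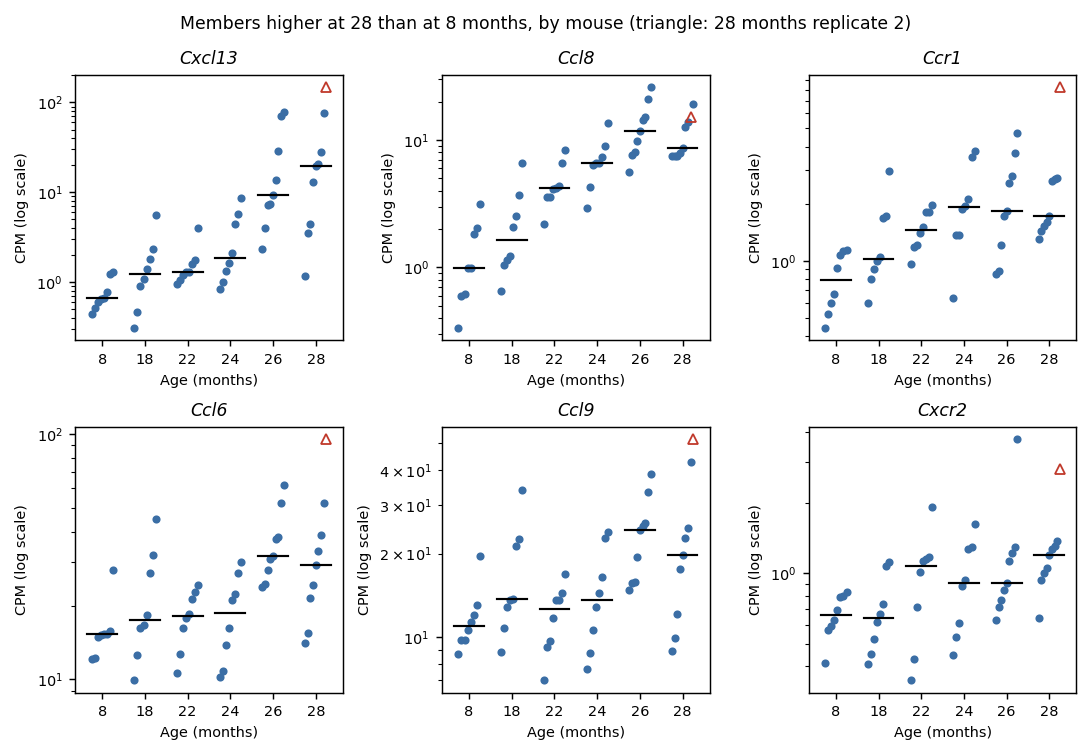
The panels show the CPM of each mouse (vertical axis, log scale) against age in months for the 6 members that were higher at 28 than at 8 months. Each point is a mouse, the bar is the median of the age and the triangle is replicate 2 of 28 months. The median of Cxcl13 is highest at 28 months, with a wide scatter, that of Ccl8 at 26 months, and the triangle tops the 28 months-old mice in each panel but that of Ccl8.

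Ccl6 and Ccl9, CC ligands of rodents that myeloid cells produce and that bind Ccr1, were both higher at 26 months than at 8 months. The step from 24 to 26 months was not called for Ccl6 (log2 0.94, adjusted p = 0.0894) or Ccl9 (0.69, adjusted p = 0.183). Ccl6 ran from 12.2 to 27.8 CPM at 8 months with a median of 15.3 CPM. Its median was 17.4 CPM at 18 months (9.91 to 44.9), 18.2 CPM at 22 months (10.6 to 24.3) and 18.6 CPM at 24 months (10.3 to 30.02). It was 31.7 CPM at 26 months (23.8 to 61.6) and 29.3 CPM at 28 months (14.1 to 95.4). The ages overlapped: 5 of 9 mice of 28 months and 7 of 9 of 26 months stood above the highest 8 months-old mouse. The log2 fold change of Ccl6 from 8 months was 1.18 at 26 months (adjusted p = 0.00203) and 1.16 at 28 months (standard error 0.29, adjusted p = 0.000825), and without replicate 2 of 28 months the second of these was 0.82 (adjusted p = 0.00848).

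Ccl9 ran from 8.69 to 19.7 CPM at 8 months with a median of 11 CPM. The median was 13.7 CPM at 18 months (8.86 to 33.8), 12.7 CPM at 22 months (6.98 to 16.9) and 13.6 CPM at 24 months (7.66 to 23.9). It was 24.3 CPM at 26 months (14.7 to 38.7) and 19.7 CPM at 28 months (8.95 to 51.8). As for Ccl6, 5 of 9 mice of 28 months stood above the highest 8 months-old mouse and the ranges overlapped. Its log2 fold change from 8 to 28 months was 0.98 (standard error 0.28, adjusted p = 0.00334). That call was lost without replicate 1 (0.82, adjusted p = 0.0134) or without replicate 2 of 28 months (0.73, adjusted p = 0.0218).

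Ccr1, a receptor of monocytes, macrophages and neutrophils that binds Ccl6, Ccl9 and other CC ligands, was scarce at 8 months. It ran from 0.441 to 1.14 CPM there, with a median of 0.794 CPM. The median was 1.02 CPM at 18 months (0.595 to 2.97), 1.46 CPM at 22 months (0.964 to 1.96) and 1.91 CPM at 24 months (0.638 to 3.79). It was 1.83 CPM at 26 months (0.847 to 4.70) and 1.73 CPM at 28 months (1.31 to 8.31). The 9 mice of 28 months did not overlap the 8 mice of 8 months, and 7 of 8 mice of 22 months were above the highest of 8 months. At 22 months against 8 months the log2 fold change of 0.87 was not called (adjusted p = 0.469), nor was that of 1.35 at 24 months (adjusted p = 0.0400). The log2 fold change from 8 months was 1.46 at 26 months (adjusted p = 0.00249) and 1.73 at 28 months (standard error 0.36, adjusted p = 0.000129), and 1.26 without replicate 2 of 28 months (adjusted p = 0.00165). Ccl8 and Ccr1 were the 2 members without overlap between 28 and 8 months, a pattern that 4.7% of all measured genes showed.

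Cxcr2, the main receptor of neutrophils for CXC ligands, stayed low. At 8 months it ran from 0.412 to 0.833 CPM with a median of 0.663 CPM. The median was 0.641 CPM at 18 months (0.41 to 1.11), 1.07 CPM at 22 months (0.347 to 1.92) and 0.906 CPM at 24 months (0.447 to 1.63). It was 0.905 CPM at 26 months (0.632 to 3.75) and 1.2 CPM at 28 months (0.644 to 2.79). In 8 of 9 mice of 28 months it was above the highest value of 8 months, 1 mouse lay inside that range, and the largest values came from replicate 7 of 26 months (3.75 CPM) and replicate 2 of 28 months (2.79 CPM). The log2 fold change of 0.96 between 28 and 8 months (standard error 0.32) was at the edge of the threshold, with an adjusted p of 0.00965. Without replicate 2 of 28 months it was 0.71 (adjusted p = 0.0553), and the call was lost in 14 of the 17 fits that left out 1 mouse of 8 or 28 months.

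The upstream sequences of the 5 members with the largest rises are shown, so that their letters can be compared, together with that of Ackr3, which fell. RefSeq promoters on GRCm38.p6 were at hand for 21 of the 27 measured members. Printed are the 250 bases before each start, 5′ to 3′ on the strand of the gene. The letters searched on both strands were GAGGAA (PU.1), TTGCNNAA (C/EBP), TGANTCA (AP-1), TTCNNNGAA (the GAS element of STAT factors) and GAAANNGAAA (the core of ISRE), besides the consensus of NF-kB, and capitals mark their matches. The 6 stretches lie at chr5:95956689-95956938 (plus strand) for Cxcl13, chr11:82114935-82115184 (plus) for Ccl8, chr11:83593088-83593337 (minus) for Ccl6, chr11:83578637-83578886 (minus) for Ccl9, chr9:123968693-123968942 (minus) for Ccr1 and chr1:90203730-90203979 (plus) for Ackr3.
Cxcl13: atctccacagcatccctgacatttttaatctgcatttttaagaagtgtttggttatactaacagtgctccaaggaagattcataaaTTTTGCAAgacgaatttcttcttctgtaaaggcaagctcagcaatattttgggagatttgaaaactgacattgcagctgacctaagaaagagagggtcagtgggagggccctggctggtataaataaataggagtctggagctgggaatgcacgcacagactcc
Ccl8: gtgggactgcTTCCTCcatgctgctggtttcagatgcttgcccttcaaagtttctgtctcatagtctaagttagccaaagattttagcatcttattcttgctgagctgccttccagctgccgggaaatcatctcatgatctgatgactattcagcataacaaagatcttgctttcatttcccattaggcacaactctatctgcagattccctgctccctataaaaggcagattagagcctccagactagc
Ccl6: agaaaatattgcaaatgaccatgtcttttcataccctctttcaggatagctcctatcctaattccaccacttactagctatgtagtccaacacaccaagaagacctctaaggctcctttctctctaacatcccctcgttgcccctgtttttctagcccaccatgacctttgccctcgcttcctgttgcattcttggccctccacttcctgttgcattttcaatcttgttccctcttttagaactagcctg
Ccl9: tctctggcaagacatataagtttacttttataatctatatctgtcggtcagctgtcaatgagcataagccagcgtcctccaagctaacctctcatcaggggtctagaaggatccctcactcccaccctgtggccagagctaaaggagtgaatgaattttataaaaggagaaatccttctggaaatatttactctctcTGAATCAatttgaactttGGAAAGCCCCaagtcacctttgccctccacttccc
Ccr1: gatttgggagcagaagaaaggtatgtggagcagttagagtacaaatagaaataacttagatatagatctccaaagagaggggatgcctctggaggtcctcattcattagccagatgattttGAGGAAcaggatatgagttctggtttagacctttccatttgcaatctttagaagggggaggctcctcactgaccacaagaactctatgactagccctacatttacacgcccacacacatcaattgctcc
Ackr3: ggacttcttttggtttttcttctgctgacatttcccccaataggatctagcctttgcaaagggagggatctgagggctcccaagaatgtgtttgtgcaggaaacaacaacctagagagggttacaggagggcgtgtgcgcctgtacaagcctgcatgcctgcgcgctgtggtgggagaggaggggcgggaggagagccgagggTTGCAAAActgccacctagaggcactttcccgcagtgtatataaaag

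In these windows Cxcl13 and Ackr3 held a match to C/EBP, Ccl8 and Ccr1 a match to PU.1, and Ccl9 a match to AP-1 and to NF-kB that do not overlap each other, and the window of Ccl6 held none of these letters. Of all 32851 promoters of the same length 9.56% held the C/EBP letters, 23.3% those of PU.1, 6.75% those of AP-1, 3.9% the NF-kB consensus, 7.02% those of GAS and 2.98% those of ISRE. Among the 21 measured members with a sequence the numbers were 4, 6, 3, 3, 1 and 2 in the same order. A member was counted where any of its promoters matched, whereas the shares are per promoter, so they are not like measures. A match is a description of letters and not a site of binding.

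The members that fell are taken next. Ccl24, an eosinophil attractant that binds Ccr3, ran from 1.28 to 4.11 CPM at 8 months with a median of 2.15 CPM. The median was 2.25 CPM at 18 months (1.80 to 2.54), 1.94 CPM at 22 months (1.23 to 2.60) and 1.19 CPM at 24 months (0.83 to 1.89). It was 1.10 CPM at 26 months (0.255 to 2.72) and 1.25 CPM at 28 months (0.495 to 1.65). The largest step in the median lay between 22 and 24 months, and 5 of 9 mice of 28 months were below the lowest 8 months-old mouse. The log2 fold change from 8 to 28 months was -1.07 (standard error 0.26, adjusted p = 0.000638), and -1.01 without replicate 2 of 28 months (adjusted p = 0.00181).

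Ccl11 (eotaxin), a ligand of the same receptor Ccr3, was more abundant, with a mean level of 44.5 TPM (transcripts per 1000000, scaled by transcript length) over all mice against 3.14 TPM for Ccl24. At 8 months it ran from 26.3 to 41.4 CPM with a median of 31.1 CPM. The median was 32.3 CPM at 18 months (29.8 to 40.5), 27.7 CPM at 22 months (25.4 to 38.8) and 23.8 CPM at 24 months (19.6 to 28.5). It was 23.0 CPM at 26 months (14.5 to 29.95) and 24.3 CPM at 28 months (18.3 to 27.5). From 24 months on the medians lay between 23.0 and 24.3 CPM, and 8 of 9 mice of 28 months were below the lowest of 8 months. Its log2 fold change from 8 to 28 months was -0.51 (standard error 0.11, adjusted p = 9.59e-05), and -0.48 without replicate 2 (adjusted p = 0.000302). The receptor Ccr3 fell short of the filter and did not exceed 0.441 CPM. It had 93 counts in all, in 33 of 50 mice, with a mean of 0.135 CPM at 8 months and 0.0148 CPM at 28 months, and in a fit without the filter its log2 fold change was -2.71 (adjusted p = 0.00558).

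Ackr3, which binds and removes Cxcl12, had the highest mean level in TPM of the 9 measured receptors. At 8 months it ran from 31.1 to 46.7 CPM with a median of 37.0 CPM. The median was 33.6 CPM at 18 months (26.2 to 45.8), 27.6 CPM at 22 months (21.8 to 32.8) and 27.4 CPM at 24 months (23.3 to 32.4). It was 22.3 CPM at 26 months (15.1 to 43.1) and 22.8 CPM at 28 months (15.7 to 44.3). In 8 of 9 mice at each of 26 and 28 months the level was below the lowest 8 months-old mouse. The remaining mice were replicate 6 at 26 months, with 43.1 CPM, and replicate 2 at 28 months, with 44.3 CPM. The log2 fold change from 8 to 28 months was -0.63 (standard error 0.15, adjusted p = 0.000544), and -0.79 without replicate 2 of 28 months (adjusted p = 1.48e-05).

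Ccl25, known as the thymus and gut ligand of Ccr9, ran from 2.38 to 4.22 CPM at 8 months with a median of 3.5 CPM. The median was 2.83 CPM at 18 months (2.27 to 3.62), 2.65 CPM at 22 months (1.45 to 3.53) and 2.7 CPM at 24 months (2.36 to 3.57). It was 2.33 CPM at 26 months (0.883 to 2.98) and 2.07 CPM at 28 months (1.29 to 3.5). The ages overlapped, and 6 of 9 mice of 28 months lay below the lowest of 8 months. Its log2 fold change of -0.58 (standard error 0.18, adjusted p = 0.00624) no longer passed without replicate 2 of 28 months (-0.50, adjusted p = 0.0172) nor in 8 of the other 16 fits without 1 mouse of 8 or 28 months. The receptor Ccr9 did not exceed 0.45 CPM.

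**Figure D3:**
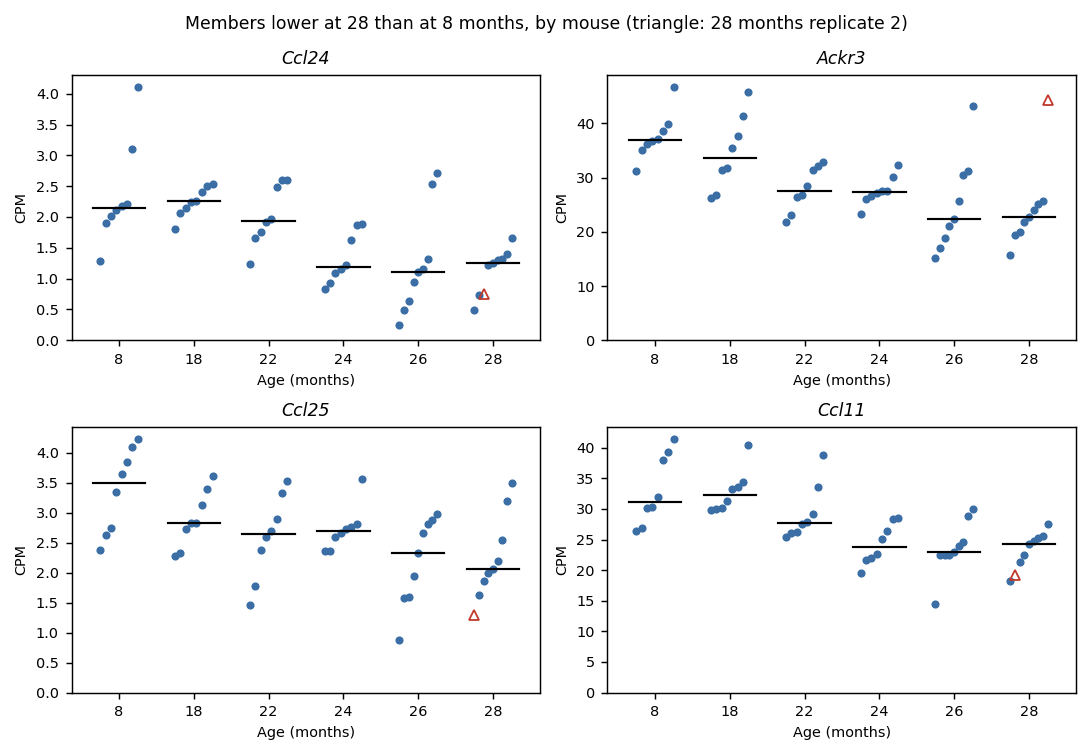
The panels show the CPM of each mouse (vertical axis from 0) against age in months for the 4 members that were lower at 28 than at 8 months, with a bar for the median of each age and a triangle for replicate 2 of 28 months. The medians of Ccl24 and Ccl11 are lower from 24 months on than at 8 months, and the triangle of Ackr3, at 44.3 CPM, sits far above the other 28 months-old mice.

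The other 17 measured members were not called between 28 and 8 months, and values are given by role. Ccl27a, a skin ligand, missed the threshold at -0.48 (adjusted p = 0.0103), and Ccl21a, a ligand for Ccr7 from lymphatic vessels, was at -0.49 (adjusted p = 0.0547). Each has near-identical copies on chromosome 4 that share reads, Ccl27b and Ccl21b among them, so the split of counts between copies is uncertain. Of the interferon-induced ligands of Cxcr3, Cxcl9 was at -0.43 (adjusted p = 0.241) and Cxcl10 at 0.26 (adjusted p = 0.652). Cxcl16, a ligand of Cxcr6, was at 0.12 (adjusted p = 0.645), Ccl28, a mucosal ligand, at -0.15 (adjusted p = 0.691) and Cxcl14, a homeostatic ligand of epithelia and other tissues, at 0.09 (adjusted p = 0.577). Ackr1, which carries chemokines across the endothelium of venules, was at 0.63 with all mice (adjusted p = 0.0305) and at 0.32 without replicate 2 of 28 months (adjusted p = 0.244). Its exons overlap those of Cadm3 on the same strand. Ackr2, which removes inflammatory CC ligands, was at 0.00 (adjusted p = 0.996).

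Ligands and receptors of a pair were set side by side where both were measured. Ccr2, the receptor that leads monocytes out of the blood, was higher at 26 months than at 8 months (log2 0.86, adjusted p = 0.00906) and not past the threshold at 28 months (0.44, adjusted p = 0.15). The difference between 28 and 26 months was itself not called (-0.42, adjusted p = 0.453). Its mean was 4.57 ± 1.74 CPM at 8 months, 8.30 ± 3.76 CPM at 24 months, 8.24 ± 3.33 CPM at 26 months (n = 9) and 6.15 ± 1.84 CPM at 28 months. Of its ligands, Ccl2 was at -0.11 (adjusted p = 0.854, 95% interval -1.03 to 0.80) and Ccl7 at 0.86 (adjusted p = 0.171, 95% interval -0.19 to 1.91) between 28 and 8 months. Cxcl12, which keeps stem cells and leukocytes in place, was at -0.01 (95% interval -0.27 to 0.24, adjusted p = 0.933) and its signalling receptor Cxcr4 at -0.11 (95% interval -0.49 to 0.28, adjusted p = 0.67), beside the fall of Ackr3. Cx3cl1 (fractalkine) was at -0.04 (adjusted p = 0.867) and its receptor Cx3cr1 at 1.08 with all mice (adjusted p = 0.0377) and 0.45 without replicate 2 of 28 months (adjusted p = 0.392).

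Levels of different genes were compared only in TPM. Over all 50 mice Cxcl12 (50.9 ± 10.5 TPM, SD), Cxcl14 (48.3 ± 10.8 TPM), Ccl11 (44.5 ± 9.11 TPM) and Ccl6 (39.3 ± 26.5 TPM) had the highest means, and those of neighbours in this order lay within each other's spread. Ccl8 followed with 23.6 ± 20.1 TPM, Ccl21a with 21.8 ± 7.18 TPM and Cxcl13 with 19.1 ± 45.9 TPM. Among receptors Ackr3 led with 17.5 ± 4.95 TPM, ahead of Ackr1 with 5.80 ± 3.20 TPM, Cxcr4 with 3.32 ± 1.06 TPM and Ccr2 with 3.08 ± 1.33 TPM. The lowest of the 27 was Cx3cr1 with 0.36 ± 0.323 TPM. The order depended on age. At 8 months (n = 8) Ccl11 had 52.5 ± 7.58 TPM, Cxcl12 48.6 ± 6.99 TPM and Cxcl14 46.8 ± 3.92 TPM, above Ccl6 with 24.5 ± 6.49 TPM, Ccl8 with 4.37 ± 3.09 TPM and Cxcl13 with 1.18 ± 0.549 TPM. At 28 months (n = 9) the means were 59.1 ± 87.9 TPM for Cxcl13, 58.9 ± 46.6 TPM for Ccl6, 52.6 ± 15.6 TPM for Cxcl14, 48.0 ± 7.7 TPM for Cxcl12, 39.5 ± 15.8 TPM for Ccl8 and 38.8 ± 4.94 TPM for Ccl11. The means of Cxcl13 and Ccl6 at that age include high values of replicate 2. Without that mouse, in CPM, the mean of Cxcl13 was 20.8 against 35.1 CPM, and that of Ccl6 was 28.6 against 36.0 CPM. The order in TPM was not taken without it.

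Over the 6 ages the calls appeared late. At 18 months against 8 months 0 members passed, with 1 at an unadjusted p under 0.05, 0 in DESeq2 and 0 in limma, and 0.0715% of all measured genes were called. At 22 months 0 passed with edgeR, 6 members had an unadjusted p under 0.05, DESeq2 and limma each called 1, and 0.0397% of all genes were called. At 24 months Ccl8 alone passed, and 0.612% of all genes. At 26 months 10 members passed, 37% of the 27 against 18.4% of all genes (9.84% higher, 8.55% lower). These were Cxcl13, Ccl8, Ccr1, Ccl6, Ccl9 and Ccr2, which were higher, and Ackr3, Ccl11, Ccl24 and Ccl25, which were lower. This count fell to 6 without replicate 1 of 8 months and to 6 without replicate 3 of 26 months, and stood at 10 without replicate 2 of 28 months. The comparisons with 8 months share the same 8 control mice.

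Between neighbouring old ages no member passed in edgeR. From 24 to 26 months 0 members passed, 6 had an unadjusted p under 0.05, DESeq2 called 1, and 0% of all measured genes were called. From 26 to 28 months 0 passed, 2 had an unadjusted p under 0.05, DESeq2 called 0, and again 0% of all genes were called. The mice of 22 and 28 months began the diet at like ages, so the older ones had it longer. Between 28 and 22 months 6 members passed, 22.2% of the 27 against 27.7% of all genes (16.2% higher, 11.5% lower). Cxcl13 (log2 4.42), Ccl8 (1.26), Ccl6 (1.0) and Ccl9 (0.96) were higher, and Ccl24 (-0.85) and Ccl11 (-0.34) were lower. Without replicate 2 of 28 months Cxcl13 and Ccl8 were the members left, and without replicate 1 of 28 months 3 members were called. The count was 3 without replicate 3 and 2 without replicate 7 of 22 months. A test for any difference over the 6 ages called 8 members, 29.6% of the 27 against 35.4% of all genes: Ccl8, Cxcl13, Ccl11, Ccl6, Ccl24, Ackr3, Ccr1 and Ccl9, the same 8 without replicate 2 of 28 months.

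**Figure D4:**
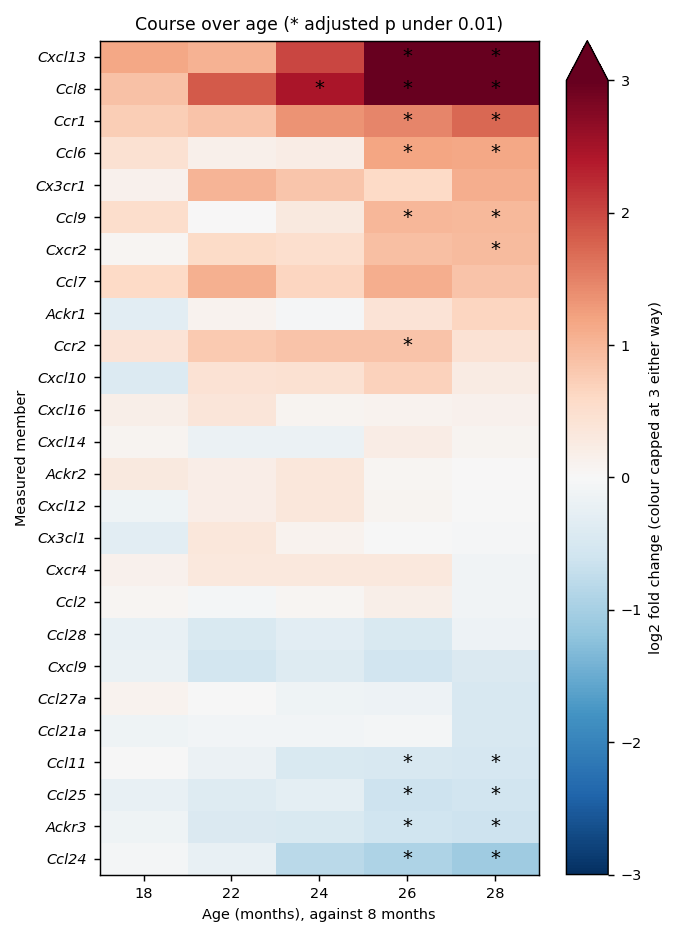
Colours give the log2 fold change of 26 measured members (rows) at 18, 22, 24, 26 and 28 months against 8 months (columns), capped at 3, and asterisks mark an adjusted p under 0.01. The first asterisk is that of Ccl8 at 24 months, and 10 members carry one at 26 months and 10 at 28 months.

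Neighbours in the genome did not all move together. On GRCm38 the chromosome 11 stretch from 82035571 to 82305690 holds 6 members, Ccl2, Ccl7, Ccl11, Ccl12, Ccl8 and Ccl1, of which 4 were measured: between 28 and 8 months Ccl8 rose, Ccl11 fell, and Ccl2 and Ccl7 were not called. Ccl12 (chromosome 11, 82101845 to 82103400), the gene before Ccl8, fell short of the filter with 1 CPM or more in 7 mice, and in a fit without the filter its log2 fold change was 2.43 (adjusted p = 0.000152). The second stretch on chromosome 11, from 83525778 to 83664683, holds Ccl5, Ccl9, Ccl6, Ccl3 and Ccl4, and its 2 measured members, Ccl9 and Ccl6, both rose. The 5 neutrophil attractants and relatives on chromosome 5 from 90759360 to 90905938 (Cxcl5, Cxcl3, Cxcl15, Cxcl1 and Cxcl2) were not measured.

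In all 33 members fell short of the filter. The highest values among them were 2.87 CPM for Ackr4 in replicate 6 of 26 months and 2.47 CPM for Cxcl1 in replicate 2 of 28 months. Ccl12 reached 2.17 CPM, Ccl5 1.5 CPM, Ccl21b 1.34 CPM, Ccl19 1.30 CPM and Cxcl2 1.10 CPM. The other 26 stayed under 1 CPM in every mouse: Ccl1, Ccl3, Ccl4, Ccl17, Ccl20, Ccl22, Ccl26, Ccl27b, Ccr3, Ccr4, Ccr6, Ccr7, Ccr8, Ccr9, Ccr10, Cxcl3, Cxcl5, Cxcl11, Cxcl15, Cxcl17, Cxcr1, Cxcr3, Cxcr5, Cxcr6, Xcl1 and Xcr1. Cxcl3 had no count in any mouse. Many of these are receptors of lymphocytes (Cxcr3, Cxcr5, Cxcr6 and Ccr7), which were at 0.701 CPM or less. Of the 27 measured members, 2 had 1 CPM in fewer than 8 mice of 8 to 24 months, Ccl7 with 7 and Cx3cr1 with 6, so they were tested through the mice of 26 and 28 months. Neither was called.

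Some markers of leukocytes also differed between 28 and 8 months, and their part in the results was not tested. Of all measured genes 39.6% were called in that comparison, 21% higher and 18.7% lower. Of 12 macrophage markers 7 were higher at 28 than at 8 months and 0 lower, with a summed level of 194.1 to 332.0 CPM at 8 months and 285.6 to 708.8 CPM at 28 months, where the highest value was replicate 2 and the next 497.2 CPM. Cd163 (log2 1.29) and Mrc1 (0.84) were higher, while Adgre1 (0.15, adjusted p = 0.567) was not called. Without replicate 2 of 28 months 4 of the 12 macrophage and 2 of the 6 monocyte entries were called, beside 4336 of the 12567 genes tested in that fit. Of 6 monocyte entries, which include Itgam under 2 gene identifiers, 5 were higher, and the sum reached 17.5 CPM at 8 months, 169.1 CPM in replicate 2 and 32.5 CPM in the other 28 months-old mice. The 3 tested neutrophil markers, S100a8, S100a9 and Csf3r, were all higher. Their list summed to at most 3.55 CPM at 8 months and to 72.9 CPM in replicate 2 against at most 19.1 CPM in the other 28 months-old mice, and single mice of 24 and 26 months reached 75.3 and 74.4 CPM.

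Most lymphocyte markers fell short of the filter. Of 8 T cell markers only Cd28 was tested and it was not called, none of the 5 NK cell markers was tested, and of 7 B and plasma cell markers only Jchain was tested and was higher (log2 2.7, adjusted p = 0.000129). The B cell markers Ms4a1, Cd79a and Pax5 had means of 0.0378, 0.0904 and 0.0594 CPM at 8 months and of 0.163, 0.339 and 0.0822 CPM at 28 months. Of 6 fibroblast markers 0 were higher and 4 lower, with a sum of 1090 to 1609 CPM at 8 months and 691.7 to 997.0 CPM at 28 months. Of 4 adipocyte markers 3 were lower, of 6 endothelial markers 1 was lower (Tek) and of 5 lymphatic endothelial markers 1 was higher (Lyve1, which macrophages also carry). In the remaining lists 0 of 3 dendritic cell, 0 of 5 Schwann cell, 0 of 2 satellite cell and 0 of 5 muscle fibre markers were called, 1 of 5 erythroid markers was higher, and all 5 tested genes of the denervation response were higher. The share called among all measured genes, 39.6%, stands beside the counts of all these lists.

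**Figure D5:**
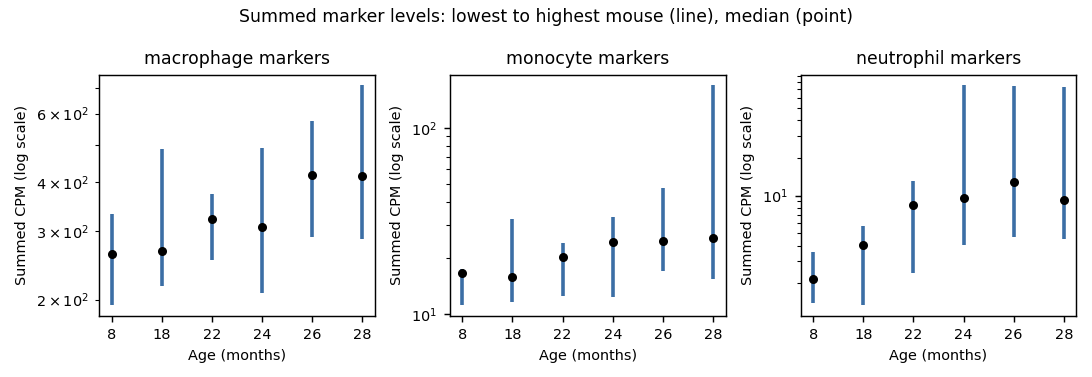
Lines run from the lowest to the highest mouse and points give the median of the summed CPM (vertical axis, log scale) of macrophage, monocyte and neutrophil markers at each age in months. The monocyte line reaches 169.1 CPM at 28 months, and the neutrophil line 75.3 CPM at 24 months.

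Genes that carry or feed the chemokine signal were counted from lists. Of 31 tested genes of chemokine signalling 10 were higher and 1 lower between 28 and 8 months, with a median log2 fold change of 0.13. The 11 called are 35.5% of the list, against 39.6% of all genes tested, and without replicate 2 of 28 months 6 were called. By fitted size with all mice Fgr came first (log2 2.88, adjusted p = 6.44e-05), a kinase of myeloid cells, followed by Rgs2 (2.44, adjusted p = 1.01e-05), an inhibitor of G protein signalling. Fgr stood at 10.4 CPM in replicate 2 against a mean of 1.79 CPM over the 28 months-old mice, that mouse included, and 0.715 CPM without it. Leaving that mouse out, the log2 fold change was 1.51 for Fgr (adjusted p = 0.00414) and 2.20 for Rgs2 (adjusted p = 4.91e-05). The gene called lower was Rarres2, which encodes chemerin (-0.47). Of 18 tested genes that induce chemokines 7 were higher and 1 lower, with a median of 0.29. The 8 called are 44.4% of that list beside the same 39.6%, and 5 were called without replicate 2. Tlr4, the endotoxin receptor, was higher by 1.34 on the log2 scale (adjusted p = 2.81e-06) and Il1r1, the receptor of interleukin 1, by 0.77 (adjusted p = 0.00288, and 0.0215 without replicate 2), whereas Ifngr2, a chain of the interferon gamma receptor, was at -0.70 (adjusted p = 1.79e-06). The cytokine genes Tnf, Il6, Il1b, Ifng, Lta and Ltb were not measured.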

How the data were processed

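RNA-seq of 50 gastrocnemius muscles was used, 1 library per mouse, grouped by age from the sample labels. The authors trimmed reads with cutadapt 1.9.1 and assigned them, with strand, by kallisto 0.43.1 to protein-coding transcripts of Ensembl on GRCm38. A read fitting several transcripts was shared evenly among them, which makes near-identical copies uncertain. They deposited unnormalised counts per gene, whole numbers in the file, and TPM values, for which the authors divided transcript counts by length and scaled to library size.

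Genes reaching 1 CPM in 8 or more mice were kept. Their counts, scaled by TMM, went into a model of all 6 ages in edgeR 4.0.16 (R 4.3.3), and each comparison was a two-sided quasi-likelihood test with p-values adjusted by Benjamini-Hochberg over all 12586 genes and a threshold of 0.01. Values by mouse and means by age are CPM on TMM library sizes, the means of genes below the filter included. The filter and the highest values of members below it are CPM on total counts. The standard error was taken from the fold change and its F statistic, with 95% intervals of 1.96 standard errors. DESeq2 1.42.0, limma 3.58.1 on log2(TPM + 1) and log2(TPM + 0.1), other factors and filters, a fit of 2 ages alone, the replicate number as a block and leaving out each mouse of the ages compared were alternatives. Total counts per mouse were 13607229 to 21267375. Errors given are the spread between mice, and no pair of mice of an age agreed within counting noise (lowest variance ratio 6.45 over 184 pairs). Counts for 28 against 8 months were simulated over the 12586 genes with the spread fitted to the data, and 200 genes were changed. Of those changed 1.5-fold 59.7% were called, of those changed 2-fold 91.0% and of those changed 4-fold 98.5%, with 1 unchanged gene. Far fewer genes were changed there than the 39.6% called in the data, and levels were pooled, so these rates need not hold for the members. Positions came from GENCODE vM21, also on GRCm38 but not the authors' release, and were found for all 60 members. Promoters are from RefSeq. Figures were drawn with matplotlib 3.10.9 in Python 3.11.15.

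Named were the measured members with their change between 28 and 8 months, values by age for members past the threshold in that comparison or over the 6 ages, members below the filter by their highest value, and genes among the 3 largest called changes of each list of signalling genes and inducers. Ccr2, Ccr3, Ccl12 and the markers given with values were chosen after their values were seen. A few genes are not reported here by name, though counts of members include them. The members and all gene and marker lists were chosen with earlier results of these data known.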

Additional observations from a re-analysis of the deposited data

Results flagged for a closer look

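Within each age the highest and the lowest mouse were compared with the others of that age for the measured members named here by Dixon's test. Of 156 groups (26 members at 6 ages) 29 (18.6%) had a mouse that stood apart. Chance gives about 1 in 20 where values are normally distributed and groups are independent. The CPM values were not checked for the first, and the groups share the same mice, so the shares do not measure an excess over chance. Replicate 2 of 28 months accounted for 9 of them, with 150.1 CPM for Cxcl13, 95.4 CPM for Ccl6, 44.3 CPM for Ackr3, 12.8 CPM for Ackr1, 8.31 CPM for Ccr1, 3.65 CPM for Cx3cr1, 2.84 CPM for Ccl2, 2.79 CPM for Ccl7 and 2.79 CPM for Cxcr2. It was the highest of its age for 11 of the 27 members. Its monocyte markers summed to 169.1 CPM against at most 32.5 CPM in the other 28 months-old mice, and its neutrophil markers to 72.9 CPM against at most 19.1 CPM, and their part in these values was not tested.

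Replicate 3 of 8 months stood above its age for Ccl6 (27.8 CPM), Ccl9 (19.7 CPM), Ccl2 (1.97 CPM) and Ccl7 (1.13 CPM), and replicate 4 of 8 months for Cx3cl1 (4.41 CPM). At 26 months replicate 7 stood above the rest for Cxcr4 (5.65 CPM), Cxcr2 (3.75 CPM) and Ccl2 (3.49 CPM). Replicate 6 of that age did so for Ackr2 (4.48 CPM) and Cxcl9 (1.9 CPM), and replicate 1 was low for Ccl11 (14.5 CPM).

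At 18 months replicate 6 was high for Ccl11 (40.5 CPM), Cxcl13 (5.58 CPM) and Cxcl9 (2.30 CPM). Replicate 2 of 18 months was high for Ccl21a (15.1 CPM), and replicate 1 high for Cxcl10 (1.75 CPM). At 22 months replicate 2 was high for Cxcl13 (3.96 CPM) and replicate 3 for Cxcl10 (2.88 CPM). At 24 months replicate 8 was high for Ccr2 (16.4 CPM) and replicate 3 for Ccl25 (3.57 CPM).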

How the results depend on the processing

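Between 28 and 8 months the log2 fold changes of Cxcl13, Ccl8, Ccr1, Ccl6, Ccl24, Ackr3 and Ccl11 kept their direction and their side of the threshold under all 26 alternatives run for each, of which 17 left out 1 mouse. The size moved with the scale: limma on log2(TPM + 1) and log2(TPM + 0.1), which understates the change of low genes, gave 3.58 and 4.28 for Cxcl13, against 5.48, and 0.76 and 1.42 for Ccr1, against 1.73. Ccl9 lost its call in 5 of 26, Ccl25 in 14 of 26 and Cxcr2 in 19 of 25 (a filter of 1 TPM left it out), and Ccl27a gained one in 10 of 26. The count of 10 members ranged from 7 to 11 without 1 mouse. With upper-quartile factors 44.9% of all called genes were higher (5 members higher, 5 lower) and with limma on log2(TPM + 1) 61.4% (5 and 4), against 52.9% (6 and 4), and the median of all genes moved by less than 0.1 on the log2 scale.

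Other counts moved as follows. At 22 months against 8 months, where 0 members were called, DESeq2 gave 1, limma 1 with either pseudocount and a threshold of 0.05 gave 1, and without 1 mouse the range was 0 to 1 (1 without replicate 7 of 8 months). At 24 months, where 1 was called, the fit of 2 ages alone gave 2, DESeq2 2 and a threshold of 0.05 gave 3, with 1 to 2 without 1 mouse (2 without replicate 6 of 8 months). At 26 months against 8 months the range without 1 mouse was 6 to 10. From 24 to 26 months DESeq2 gave 1. Between 28 and 22 months the fit of 2 ages gave 3 and limma 2 with either pseudocount, with 2 to 7 without 1 mouse. For any difference over the ages a threshold of 0.05 gave 16. Without the filter 59 members had a count. The causes were not tested.

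Members near no change reversed their sign: Cxcl10 was at -0.000138 in limma on log2(TPM + 0.1), Ackr2 at -0.053 with upper-quartile factors and at -0.0017 in the fit of 2 ages, and without 1 mouse they ranged from -0.080 to 0.39 (Cxcl10) and from -0.12 to 0.078 (Ackr2), Ccl2 from -0.63 to 0.14, Cx3cl1 from -0.11 to 0.10 and Cxcl12 from -0.053 to 0.041.

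The labels repeat replicate numbers at each age without saying that they pair mice. Of 121 pairs with the same number 52 correlated above 0.1 (mean r = 0.04, against -0.005 for pairs with other numbers). Of 50 mice 12 correlated best with their own number. No chance level was set for these counts, so they do not decide whether the numbers pair mice. As the labels name no pairs, the mice were not taken as paired. With the replicate number as a block 2 members were called at 24 months against 8 months, and Ccl25 (adjusted p = 0.0113) and Cxcr2 (adjusted p = 0.0128) did not pass at 28 months. Counts under 1 CPM limit what could be seen of the 33 members below the filter.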
